A study of Mus musculus with 19 samples.

Results

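Voltage-gated sodium and calcium channels, potassium channels and the hyperpolarization-activated Hcn channels were described in cells of the mouse medial amygdala. The genes were taken by symbol: every gene whose symbol starts with Kcn or Cacn, or is that of an Scn alpha or beta subunit or of an Hcn channel. The rule found 110 of the 16233 genes counted. They fall into 33 pore-forming Kv subunits, 9 Kv auxiliary subunits, 11 inward rectifiers (Kcnj) and 9 two-pore potassium channels (Kcnk). A further 11 genes with Kcnm, Kcnn, Kcnt or Kcnu symbols were grouped, by symbol only, as calcium- or sodium-activated potassium channel subunits. Calcium channel subunits were 9 alpha1, 4 alpha2delta, 4 beta and 6 gamma. The rest were 4 Hcn channels, 6 sodium channel alpha subunits and 4 sodium channel beta subunits. The neuronal sodium channel listed as Scn2a1 carries an older symbol, so it is not among the 110 and is given with the partner genes.

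Voltage-gated channels open when the membrane potential changes. Sodium channels carry the upstroke of the action potential, Kv channels end it, and calcium channels couple firing to transmitter release and transcription. Inward rectifiers and two-pore channels hold the resting potential, and in astrocytes they also clear potassium from the space around firing neurons. Microglia, oligodendrocytes and the contractile cells of vessels each use other potassium channels, so a channel list read across a whole tissue mixes many cell types.

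Cells came from male C57BL/6J mice of 8 or 9 weeks and were prepared by Act-Seq, a dissociation built to limit transcription while tissue is taken apart, followed by Drop-Seq. Each counted molecule carries a unique molecular identifier (UMI). The table used here holds 20679 cells in 16 libraries: 6 from naive control mice, 2 from mice affected by seizure, 4 from mice under acute immobilization stress and 4 from mice acutely exposed to odors. Mice were 9 weeks old in seizure 1, immobilization 2 and 3 and odor 1 and 2, and 8 weeks old elsewhere, including every naive library. The labels used here do not say how seizures were evoked, which odors were used or how many mice made up a library. Cell classes are those in the authors' cell names, except that the 2444 cells of their separate neuron table, in 16 clusters named N1 to N16, were taken as neurons and the other 6206 cells of their neuron class as a class apart.

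Cells per library ranged from 43 to 2189 and UMIs per library from 116492 to 3723521; the median cell had 1222 UMIs, and 20 of 20659 distinct barcodes occurred in more than 1 library. Naive 6 (43 cells) reached 10 cells in no class and entered no comparison. Immobilization 4 (182 cells), naive 5 (230) and odor 4 (425) were small and stood apart from their groups in several genes below. The labels of most classes held: microglia carried all 6 microglia markers at a sum of 26921 ± 1645 CPM (UMIs per 1000000 UMIs; SD, n = 15) and astrocytes all 6 astrocyte markers at 27069 ± 1292 CPM (n = 15). Neurons were an exception, with 9 neuron markers summing to 5305 ± 2780 CPM and the astrocyte markers to 13770 ± 1584 CPM (n = 14), so Kcnj10 below is also given by neuron cluster. Precursors were another, with 6 oligodendrocyte markers at 18220 ± 6847 CPM, above their own 5 precursor markers at 6812 ± 1008 CPM (n = 15); their part in the channel levels of precursors was not tested. The endothelial class carried 4 mural markers at 5099 ± 1405 CPM (n = 15), against 21714 ± 4174 CPM in mural cells (n = 12). Levels in this text are CPM of a library's UMIs in a class; UMIs come from transcript ends, so no division by gene length was made. Class levels pool the naive, seizure, immobilization and odor libraries unless a group is named, so their SD includes differences between groups. A class or cluster was made by the authors from these same cells, so levels across classes and clusters are a description, with no test.

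Channel transcripts made up a small part of every class. Summed over the 110 genes, they reached 4217 ± 616 CPM in precursors (n = 15), 3576 ± 199 CPM in neurons (n = 14), 2867 ± 231 CPM in astrocytes (n = 15), 2141 ± 596 CPM in mural cells (n = 12), 1612 ± 303 CPM in oligodendrocytes, 914 ± 155 CPM in microglia and 546 ± 126 CPM in endothelial cells (n = 15 each). Precursors and neurons overlapped within their SD. The families making up these sums differed from class to class. In neurons the inward rectifiers (816 ± 107 CPM) and the Kv pore-forming subunits (735 ± 137 CPM) were the largest families. Of the inward rectifiers there, Kcnj10 gave 490 CPM and Kcnj16 242 CPM, and both genes had their highest mean in astrocytes. Clusters N12 and N9 had the lowest astrocyte marker sums. There inward rectifiers summed to 375 and 401 CPM, under Kv pore-forming subunits at 1652 and 1127 CPM. The Kv subunits were also higher in N10 and N11, and the inward rectifiers in the other clusters. In precursors the gamma family, which includes auxiliary subunits of AMPA receptors (TARPs), led with 1212 ± 221 CPM. Of this, the TARP gene Cacng4 alone gave 1097 CPM. Two-pore channels gave 426 ± 104 of the 914 CPM in microglia.

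**Figure D1:**
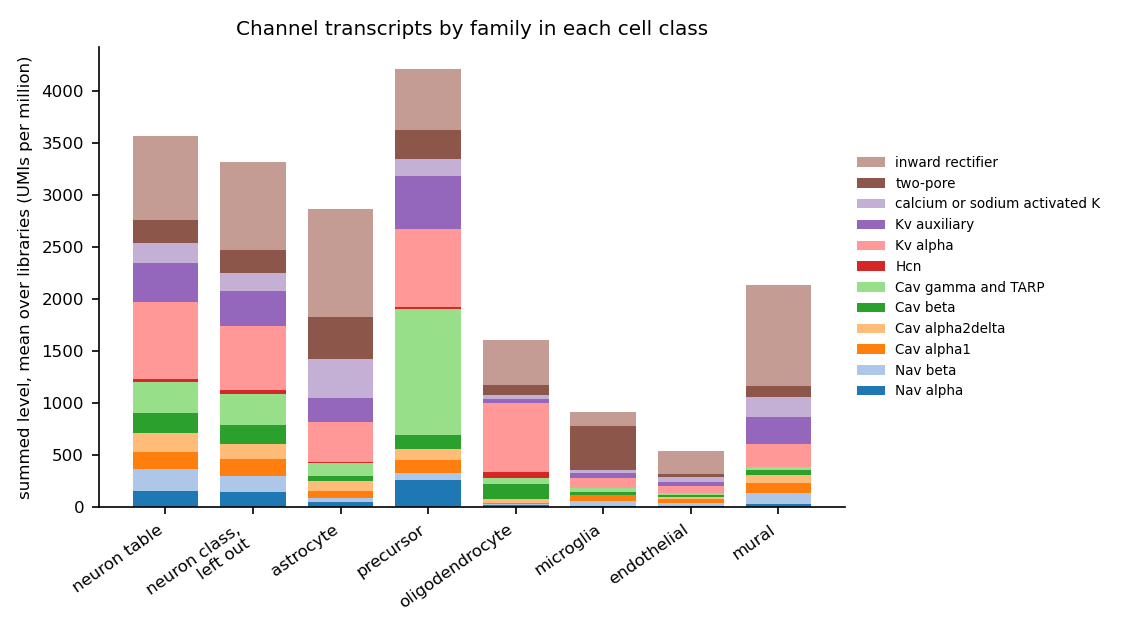
Mean summed level of each channel family (CPM, stacked bars) in each cell class, over 12 to 15 libraries. The gamma family fills much of the precursor bar, two-pore channels much of the microglia bar and inward rectifiers much of the mural bar.

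Of the 110 genes, 100 had at least 50 UMIs in the table. Among those 100, with the neuron-class cells left out of the neuron table set aside, the highest mean was in neurons for 43, in precursors for 24, in mural cells for 13, in astrocytes for 9, in oligodendrocytes for 7 and in microglia for 4. All libraries of the highest class lay above those of the second for 4, 1, 0, 2, 0 and 1 genes, in that order. Mural cells held only 893 channel UMIs in the libraries used. The same counts over all genes were not made, so these numbers are not a trait of channel genes.

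With the left-out neuron-class cells set aside, sodium channel genes of at least 50 UMIs had their highest means in neurons or precursors. Scn2b, a beta subunit, reached 99.2 ± 37.3 CPM in neurons and 82.9 ± 57.1 CPM in mural cells. The mural value rests on few counts, as all sodium channel beta subunits together had 48 UMIs there. Scn3a, an alpha subunit prominent in development, was at 145 ± 63.2 CPM in precursors and 62.1 ± 29.3 CPM in neurons. Scn8a, the alpha subunit of mature axon initial segments, was at 63.1 ± 42.3 CPM in precursors, 43.7 ± 17.7 CPM in neurons and 33.4 ± 8.9 CPM in astrocytes. Scn1a was at 48.4 ± 24 CPM in precursors and 20.4 ± 12.5 CPM in neurons, and Scn7a, the atypical sodium-sensing member, at 3.19 ± 4 CPM in neurons. For each of these 5 sodium channel genes the libraries of the 2 highest classes overlapped.

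Among calcium channel subunits, Cacng4 stood out. It encodes TARP gamma-4, an auxiliary subunit of AMPA receptors, and reached 1097 ± 217 CPM in precursors (lowest library 629, highest 1434), against 131 ± 64.2 CPM in neurons, where the highest library reached 341. Cacng7, a related TARP, was also highest in precursors, at 97.6 ± 39.2 CPM, but overlapped with neurons at 56.6 ± 11.8 CPM. Cacng2, the TARP known as stargazin, followed the neurons instead: 85.5 ± 22.6 CPM there and 11.9 ± 7.19 CPM in astrocytes, with no overlap of libraries. Cacnb3, a cytoplasmic beta subunit, was at 95.6 ± 23.9 CPM in neurons and 17.6 ± 14.1 CPM in precursors, again with no overlap, whereas Cacnb4 was highest in oligodendrocytes (137 ± 40.4 CPM). The pore-forming Cacna1a (P/Q type) reached 40.3 ± 27.7 CPM in precursors and 30.6 ± 18.7 CPM in neurons, and Cacna1c (L type) no more than 19.6 ± 22.9 CPM, in mural cells. Cacna2d1, an alpha2delta subunit, was at 84.5 ± 35.3 CPM in neurons and 77.1 ± 61.5 CPM in mural cells. Of the Hcn channels, Hcn2 was highest in oligodendrocytes (55.4 ± 14.9 CPM, against 20.2 ± 10.2 CPM in neurons).

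Kv channels split between neurons and glia. Kcna1 (Kv1.1), known from the axon beside the node, was highest in oligodendrocytes at 426 ± 153 CPM, against 58.1 ± 31.9 CPM in precursors and 37.1 ± 17.2 CPM in neurons. Kcna6 followed it there with 111 ± 27.0 CPM. Kcnd2 (Kv4.2), which carries A-type current, was at 202 ± 51.9 CPM in precursors, 160 ± 20.8 CPM in astrocytes and 102 ± 25.1 CPM in neurons. Kcnip3, a calcium-binding partner of Kv4 channels, was at 411 ± 135 CPM in precursors and 137 ± 34 CPM in astrocytes. Kcnip4, another such partner, was at 36.5 ± 19.6 CPM in neurons and 9.40 ± 4.82 CPM in astrocytes, the next of the classes other than the left-out neuron-class cells. Kcnab2, a Kv beta subunit, was at 71.2 ± 16 CPM in neurons against 12.5 ± 4.66 CPM in astrocytes, with no overlap of libraries.

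The leading potassium channels differed between astrocytes, microglia and mural cells. Astrocytes held Kcnj10 (Kir4.1, the main potassium-buffering channel of glia) at 583 ± 110 CPM, its partner Kcnj16 (Kir5.1) at 419 ± 49.7 CPM, Kcnk1 (TWIK-1) at 316 ± 80.7 CPM, Kcnn2 (SK2, opened by calcium) at 213 ± 69.7 CPM and Kcnt1 (Slack, opened by sodium) at 120 ± 39.1 CPM. Microglia held Kcnk6 (TWIK-2) at 316 ± 105 CPM; the next class, the endothelial, had 9.20 ± 9.72 CPM, with no overlap of libraries. Kcnk13 (THIK-1), a tonic potassium channel of microglia, was shared by microglia (55.0 ± 26.8 CPM) and oligodendrocytes (78.3 ± 24.4 CPM), and stayed at 0.669 ± 0.783 CPM in astrocytes. Mural cells held Kcnj8 (Kir6.1, the pore of the vascular ATP-sensitive channel) at 903 ± 495 CPM, Kcnmb1 (the smooth-muscle beta subunit of the BK channel) at 131 ± 85.5 CPM, Kcnab1 at 118 ± 73.4 CPM and Kcne4 at 134 ± 123 CPM. Kcnj8 was at 137 ± 100 CPM in the endothelial class, which carries mural markers as given above, and Kcnmb1 overlaps Kcnip1 in the annotation, so without a stated strand setting reads of this pair may not be told apart. Kcnma1, the BK channel pore, was at 72.2 ± 31.7 CPM in neurons.

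**Figure D2:**
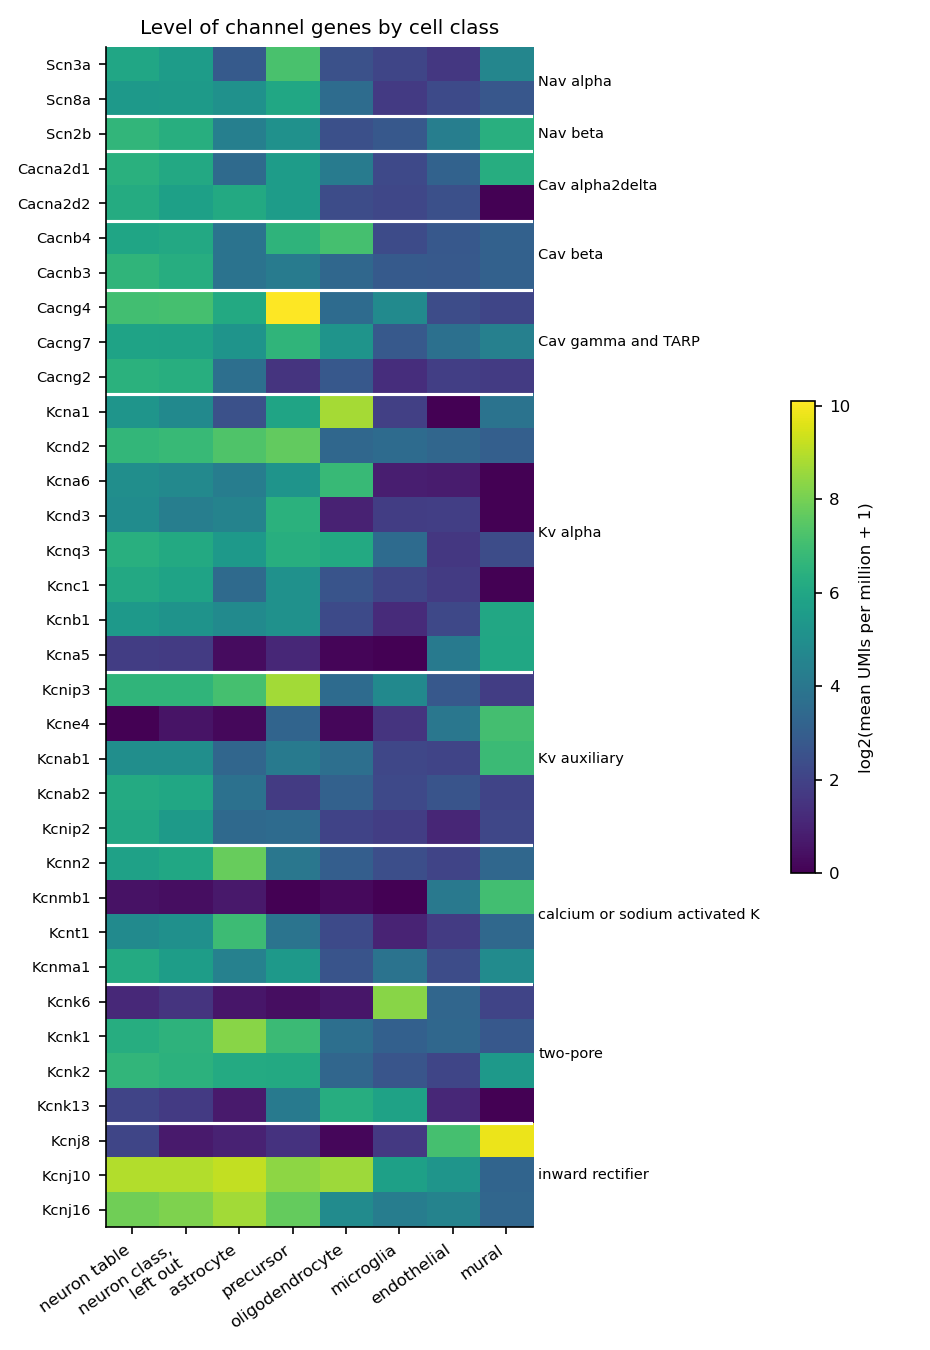
Mean level, as log2(CPM + 1), of 34 channel genes that reach at least 60 CPM in a class, grouped by family (rows), in each cell class (columns). Cacng4 in precursors, Kcnj8 in mural cells, Kcnk6 in microglia and Kcna1 in oligodendrocytes are each bright in 1 class, while Kcnj10 is bright in neurons, astrocytes, precursors and oligodendrocytes.

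Kcnj10 was counted in several classes beside astrocytes. Taken library by library, its level in neurons was 87.9% ± 13.3 of the astrocyte level (n = 14), in oligodendrocytes 70.1% ± 20.3 and in precursors 58.1% ± 26.9 (n = 15 each), and in microglia 9.17% ± 5.36 (n = 15). The astrocyte markers set beside it differed between these classes. In oligodendrocytes they stood between 2.90% (Gja1) and 8.89% (Aldoc) of their astrocyte level, and in precursors between 1.42% (Agt) and 9.44% (Slc1a2), far under Kcnj10. In neurons they stood between 20.05% (Gja1) and 91.6% (Aldoc). Kcnj16 followed Kcnj10 in neurons (57.6% ± 11.9) and precursors (50.6% ± 14.1) but not in oligodendrocytes (6.79% ± 3.48). Kcnk1 and Kcnn2 were at 24.6% ± 6.8 and 27.0% ± 10.3 of their astrocyte levels in neurons. Both means lay above Gja1 (20.05%), Agt (21.7%) and Aqp4 (21.8%) there and under Slc1a3 (41.6%), Slc1a2 (74.8%) and Aldoc (91.6%). Within neurons Kcnj10 was lowest in the 2 clusters with the lowest astrocyte marker sums: it was at 136 CPM in N12 and 169 CPM in N9, where the marker sums were 2294 and 2803 CPM, and at 256 to 637 CPM in the other 14 clusters, where the sums were 8947 to 17043 CPM. The part of RNA from other cells in the neuron values was not tested.

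Neuron clusters N9 and N12 had the highest channel sums. Summed over all 110 genes, N12 (103 cells) reached 6479 CPM and N9 (117 cells) 4695 CPM, N11 4387 CPM, and the other 13 clusters 3067 to 3926 CPM; these are sums over all cells of a cluster, with no replicate error. Of 69 genes with at least 50 UMIs in neurons, 32 were highest in N12, 9 in N9 and 9 in N11. No such count was made over all genes, so these numbers are not a trait of channel genes. N12 also had the fewest UMIs of any cluster, 242766. N12 is set apart by its neuron marker sum, 64745 CPM against 14229 CPM in N9 and 1552 to 3196 CPM in the other 14 clusters. The neuron list includes the long noncoding RNA Meg3, and its part in this sum was not tested.

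The 10 genes with the largest ratio of highest to median cluster level fell to these 2 clusters, and 9 of them are described. In N9, Kcnb2 (Kv2.2, a delayed rectifier) reached 106 CPM against a median cluster level of 3.52 CPM, Cacna2d2 (an alpha2delta subunit) 643 CPM against 42.3 CPM, and Scn9a (Nav1.7) 49.7 CPM against 4.68 CPM, with N12 close behind at 49.4 CPM. In the 6 libraries with at least 10 cells of N9, Cacna2d2 averaged 653 ± 348 CPM, with a lowest library of 375 and a highest of 1331 CPM. Its sister Cacna2d1 was also highest in N9, at 447 CPM against 148 CPM in N12. In N12, Cacna1g (the T-type channel Cav3.1) reached 165 CPM against a median of 7.39 CPM, Kcnt1 338 CPM against 20.4 CPM, Cacna1a 251 CPM against 20.3 CPM, Cacna1d 148 CPM against 15.2 CPM, Kcnh2 70.0 CPM against 7.45 CPM and Scn1a 161 CPM against 18.7 CPM. N12 had 3 libraries with at least 10 cells, in which Kcnt1 averaged 346 ± 203 CPM and Cacna1a 254 ± 120 CPM. Other genes varied less: Kcnma1 ranged from 39.2 CPM in N6 to 117 CPM in N11.

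**Figure D3:**
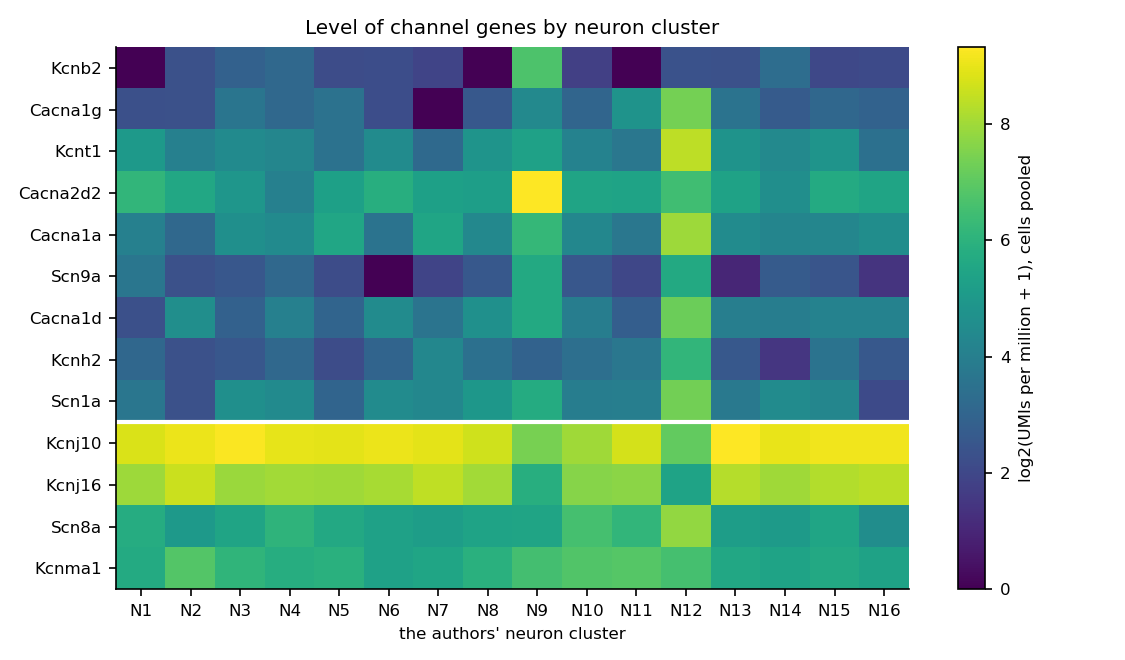
Level, as log2(CPM + 1) over all cells of a cluster, of 9 of the 10 genes with the largest ratio of highest to median cluster (above the white line) and of Kcnj10, Kcnj16, Scn8a and Kcnma1 (below it), in the authors' neuron clusters N1 to N16. The upper genes peak in N9 or N12, where Kcnj10 and Kcnj16 are lowest.

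By group, the N9 and N12 values rest on few cells and were not tested. Cacna2d2 in N9 gave 104 UMIs in 47 naive cells (756 CPM), 17 in 20 seizure cells (396 CPM), 42 in 26 immobilization cells (645 CPM) and 31 in 24 odor cells (552 CPM). Kcnt1 in N12 gave 57 UMIs in 47 naive cells, 12 in 21 seizure cells, 11 in 22 immobilization cells and 2 in 13 odor cells. Of the 47 naive cells of N12, 30 came from naive 1, where N12 made up 10.2% of neurons, against 1.52% to 4.15% in naive 2 to 4; naive 5 gave 2 of 10 neurons and naive 6 gave 1 of 5.

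The tests between groups used UMI counts summed per library and class, in 1 fit per class over all genes. Of the 110 genes, 72 had enough counts for a test in at least 1 class and 38 in none, which made 203 pairs of gene and class: 59 in neurons, 58 in the neuron-class cells left out of the neuron table, 44 in astrocytes, 19 in precursors, 11 in oligodendrocytes, 9 in microglia, 2 in mural cells and 1 in endothelial cells. A gene rose or fell where the adjusted p was under 0.05. The 3 comparisons with naive share the naive libraries. The labels do not state that each library is its own animal; p-values therefore speak of the spread among these libraries, part of which may be technical.

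Immobilization against naive asked how acute stress moved these genes. Kcnk6 rose in microglia, and Kcnk1 and Kcnn2 rose in astrocytes; no channel gene fell. These 3 of 203 pairs stand beside 0.782% of all 51784 pairs of gene and class tested, 1.46% of the 6499 genes in microglia and 1.51% of the 10520 genes in astrocytes. The median log2 fold change of the 203 pairs was 0.02, against -0.01 over all pairs, and 22 of the 203 had an unadjusted p under 0.05, against 3490 of all 51784 pairs. In astrocytes the median over 44 channel genes was 0.11, against -0.02 over all genes, with 28 above 0. In neurons the median over 59 was -0.13, against -0.01, with 23 above 0 and none called. N9 and N12, the clusters of highest channel sums, made up 4.05% and 3.43% of neurons after immobilization and 6.24% each in naive libraries. Their part in this median was not tested.

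Kcnk6 (chr7:29221926-29232515, minus strand, GRCm38) encodes a background potassium channel that in macrophages serves potassium efflux. In naive microglia it stood at 182, 216, 268, 182 and 212 CPM in naive 1 to 5 (180 UMIs in all). In immobilization 1 to 4 it stood at 428, 425, 453 and 308 CPM (314 UMIs), so every stressed library lay above every naive one, although immobilization 4 rests on 7 UMIs from 17 cells. The log2 fold change was 0.97 (SE 0.19, n = 4 against 5; adjusted p = 0.000969). The call held in each of 16 fits that left out 1 library and under each of 10 other settings, with a largest adjusted p of 0.0128 with age as a covariate. The fit without naive 6 repeats the main fit, because naive 6 had too few cells to enter it. The 6 microglia markers summed to 25257 to 29863 CPM in naive and 24625 to 28247 CPM in immobilization microglia, and the 6 astrocyte markers to 742 to 1367 and 660 to 2063 CPM. At 8 weeks alone, immobilization 1 and 4 still lay above every naive library.

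Kcnk1 (chr8:125995170-126030685, plus strand, GRCm38) encodes a two-pore channel of the astrocyte leak conductance. Naive 1 to 5 gave 243, 343, 197, 244 and 254 CPM in astrocytes, and immobilization 1 to 4 gave 429, 401, 441 and 241 CPM. The 3 large stressed libraries lay above all naive ones, and the small immobilization 4, with 18 UMIs, lay among them. The log2 fold change was 0.66 (SE 0.14, n = 4 against 5; adjusted p = 0.00555). With age as a covariate it was 0.58 and the call was lost (adjusted p = 0.0902), and the call was also lost without immobilization 1 (adjusted p = 0.0540) or immobilization 3 (adjusted p = 0.0601). At 8 weeks alone the stressed libraries were immobilization 1 and 4, at 429 and 241 CPM.

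Kcnn2 (chr18:45268860-45686024, plus strand, GRCm38), which encodes a small-conductance channel opened by calcium, was also higher in the 3 large stressed libraries than in any naive one. Naive 1 to 5 gave, in astrocytes, 156, 226, 182, 168 and 113 CPM, and immobilization 1 to 4 gave 282.5, 285, 324 and 93.8 CPM, the last from 7 UMIs and below every naive library. The log2 fold change was 0.67 (SE 0.16, n = 4 against 5; adjusted p = 0.0133). The call was lost in DESeq2 (adjusted p = 0.0693), with age as a covariate (adjusted p = 0.102) and without immobilization 1, 2 or 3 (adjusted p = 0.0658, 0.0798 and 0.140), while the log2 fold change stayed between 0.55 and 0.80 in all alternatives run. Astrocyte markers in astrocytes summed to 25411 to 29175 CPM in naive and 27068 to 29027 CPM in immobilization libraries, and the 9 neuron markers to 222 to 508 and 411 to 459 CPM. Kcnn2 overlaps 4 other annotated genes, and the labels used here do not say whether reads were counted by strand.

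**Figure D4:**
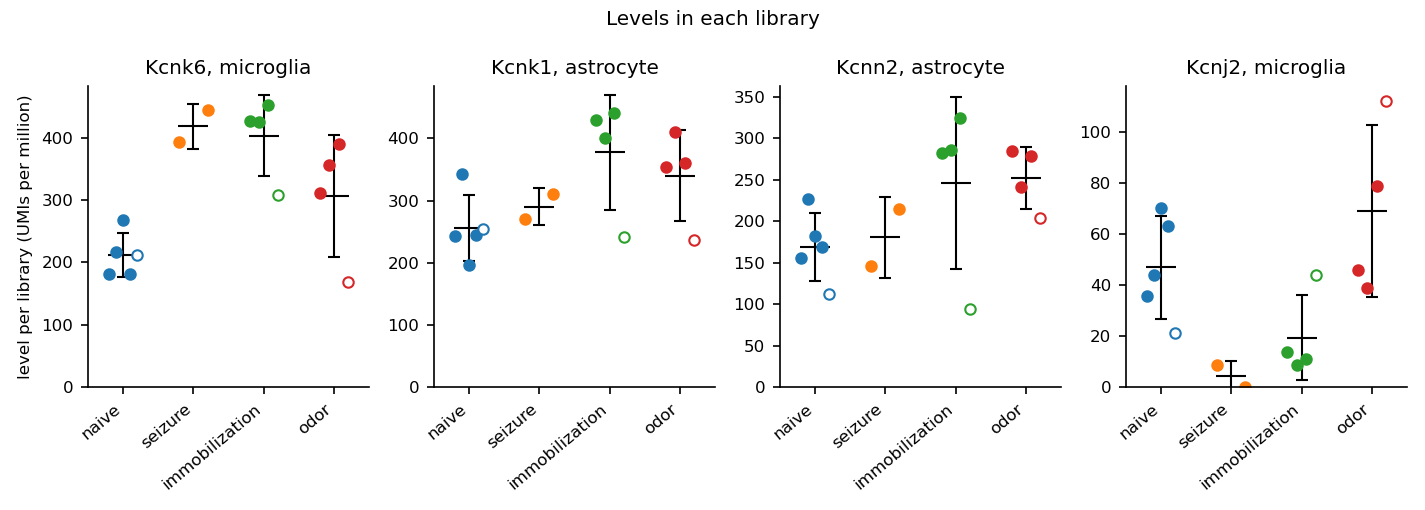
Level (CPM) of Kcnk6 and Kcnj2 in microglia and of Kcnk1 and Kcnn2 in astrocytes in each library, by group; bars are mean ± SD and open points are libraries of under 500 cells. All seizure and immobilization points of Kcnk6 lie above all naive points, and the open immobilization point is the lowest of its group for Kcnk6, Kcnk1 and Kcnn2.

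The other astrocyte channels did not pass. Kcnj10 was at 507, 583, 647, 692 and 722 CPM in naive 1 to 5 and 480.5, 597, 449.5 and 482 CPM in immobilization 1 to 4, with a log2 fold change of -0.30 (SE 0.13, adjusted p = 0.388). Kcnj16 differed by -0.15 (SE 0.12, adjusted p = 0.797), Kcnt1 by 0.52 (SE 0.19, adjusted p = 0.251) and Kcnd2 by -0.07 (SE 0.14, adjusted p = 0.946). In neurons Kcnk1 and Kcnn2 had log2 fold changes of 0.92 (SE 0.23, adjusted p = 0.176) and 0.93 (SE 0.25, adjusted p = 0.314). There Kcnn2 was at 28.5 to 44.5 CPM in the 5 naive and 54.1 to 77.3 CPM in the 4 immobilization libraries, with no overlap; the astrocyte markers in those neurons summed to 9626 to 14646 and 13778 to 15690 CPM, and their part in this difference was not tested.

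The promoters of Kcnk1, which rose in astrocytes, and of Kcnj10, which did not pass there, are shown because they differ in base composition although both genes were highest in astrocytes. Sequences are from RefSeq on GRCm38.p6, 250 bases before to 50 after the start and 5′ to 3′ on the gene's strand. Capitals mark matches to the glucocorticoid hexamer AGAACA and the GC box CCGCCC on either strand; the CRE core TGACG, the AP-1 site TGANTCA and the TATA box TATAAA were searched in the same way.
Kcnk1, chr8:125994852-125995151, plus strand: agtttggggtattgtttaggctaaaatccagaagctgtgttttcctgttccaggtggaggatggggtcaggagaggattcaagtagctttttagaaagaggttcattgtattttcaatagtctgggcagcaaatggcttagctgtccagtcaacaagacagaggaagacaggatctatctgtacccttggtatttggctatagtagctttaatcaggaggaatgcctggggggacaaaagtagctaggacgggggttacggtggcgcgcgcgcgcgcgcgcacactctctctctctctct
Kcnj10, chr1:172340960-172341259, plus strand: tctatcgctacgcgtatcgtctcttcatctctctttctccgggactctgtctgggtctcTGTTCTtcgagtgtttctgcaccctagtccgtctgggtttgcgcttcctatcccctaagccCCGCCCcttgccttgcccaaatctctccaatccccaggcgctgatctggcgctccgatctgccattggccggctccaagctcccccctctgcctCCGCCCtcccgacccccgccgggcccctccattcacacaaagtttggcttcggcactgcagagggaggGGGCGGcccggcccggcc
The Kcnk1 stretch had 49.0% G and C and held none of the 5 motifs. The Kcnj10 stretch had 63.7% G and C, 3 GC boxes and 1 AGAACA hexamer on the reverse strand, at bases 60 to 65. Among 27025 genes with such a stretch, 35.9% held a GC box and 19.0% the AGAACA hexamer, against 44 and 9 of the 78 channel genes matched by symbol. CRE cores occurred in 21.0%, TATA boxes in 14.2% and AP-1 sites in 7.93% of the 27025, and in 16, 2 and 3 of the 78. A match describes letters, not a bound site.

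Seizure against naive gave 1 call, again Kcnk6 in microglia and again higher. It stands beside 0.278% of all 51784 pairs and 0.431% of the genes tested in microglia. Seizure 1 and 2 stood at 393 and 444 CPM (167 UMIs), above every naive library, with a log2 fold change of 1.00 (SE 0.23, n = 2 against 5; adjusted p = 0.0103). The call was lost without naive 1 (adjusted p = 0.0632) and when either seizure library was left out (adjusted p = 0.107 without seizure 1 and 0.431 without seizure 2). Microglia markers summed to 26635 to 27026 CPM and astrocyte markers to 1161 to 1788 CPM in these libraries. The median log2 fold change of the 203 pairs was 0.04, against -0.01 over all pairs, and 10 had an unadjusted p under 0.05, against 2510 of all 51784 pairs. In astrocytes Cacnb4 (log2 1.33, SE 0.45, adjusted p = 0.421) and Kcnma1 (log2 0.99, SE 0.36, adjusted p = 0.510), and in neurons Cacna2d2 (log2 -1.10, SE 0.36, adjusted p = 0.999), did not pass.

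Kcnj2 (Kir2.1), the inward rectifier of microglia, came next and did not pass. Naive 1 to 5 gave 35.7, 44.1, 70.3, 63.2 and 21.2 CPM, seizure 1 and 2 gave 8.54 and 0 CPM, and immobilization 1 to 4 gave 13.6, 8.49, 11.2 and 44.0 CPM, the last from 1 UMI. The seizure values rest on 2 UMIs, which is under the floor of 3 counts, so no fold is given for them (adjusted p = 0.0708). For immobilization against naive the log2 fold change was -1.94 (SE 0.56, adjusted p = 0.0629), and it passed in 5 of the alternatives, among them the one without libraries of under 300 cells. In odor 1 to 4 Kcnj2 stood at 45.8, 38.7, 78.9 and 112 CPM. Kcnk13 in microglia was at 63.9 to 86.9 CPM in naive, 71.1 and 76.8 CPM in seizure and 0 to 50.3 CPM in immobilization libraries (log2 -0.69, SE 0.37, adjusted p = 0.632 for immobilization).

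No channel gene was called for odor against naive, where 0.253% of all pairs were; 19 of 203 pairs had an unadjusted p under 0.05, against 3215 of all 51784, and DESeq2 also called none. The same 3 genes had positive values that did not pass: Kcnk6 in microglia stood at 311, 357, 390 and 168 CPM in odor 1 to 4 (log2 0.64, SE 0.20, adjusted p = 0.527), Kcnk1 in astrocytes at 355, 410, 360 and 237 CPM (log2 0.46, SE 0.15, adjusted p = 0.158) and Kcnn2 in astrocytes at 285, 241, 279 and 204 CPM (log2 0.56, SE 0.16, adjusted p = 0.108). Without naive 2, the highest naive library for both, Kcnk1 and Kcnn2 passed (adjusted p = 0.0157 and 0.0186). Cacng2 in astrocytes was at 11.2 to 26.3 CPM after odor and 0 to 9.5 CPM in naive libraries (log2 1.52, SE 0.42, adjusted p = 0.0861). Cacna2d2 in neurons was at 38.4 to 50.4 CPM after odor (log2 -1.12, SE 0.34, adjusted p = 0.229). Its naive libraries stood at 69.5, 248, 64.9, 57.7 and 42.6 CPM; naive 2, the highest, had 12.9% of its neurons in cluster N9, where the gene is highest, against 4.42% to 10% in naive 1, 3, 4 and 5. Naive 5, with 10%, was the lowest of the naive libraries, and the part of the N9 share in these values was not tested.

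Seizure and immobilization were also set against each other. No channel gene was called, beside 0.122% of all pairs; 14 of 203 had an unadjusted p under 0.05, against 2319 of all 51784, and DESeq2 called none. Kcnk6 in microglia differed by a log2 of 0.03 (SE 0.22, adjusted p = 0.989). In astrocytes Kcnk1 was at 270 and 311 CPM and Kcnn2 at 146 and 215 CPM after seizure, with log2 differences from immobilization of -0.46 (SE 0.18, adjusted p = 0.699) and -0.63 (SE 0.20, adjusted p = 0.365), so a difference between these conditions was not shown for either. Kcnh7 in the left-out neuron-class cells (log2 1.37, SE 0.44, adjusted p = 0.778) and Kcnd2 there (log2 -0.65, SE 0.26, adjusted p = 0.999) did not pass. Cacng4 in microglia rested on 1 UMI after seizure and 31 after immobilization (adjusted p = 0.436). Of these 31, 28 came from the single library immobilization 2.

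**Figure D5:**
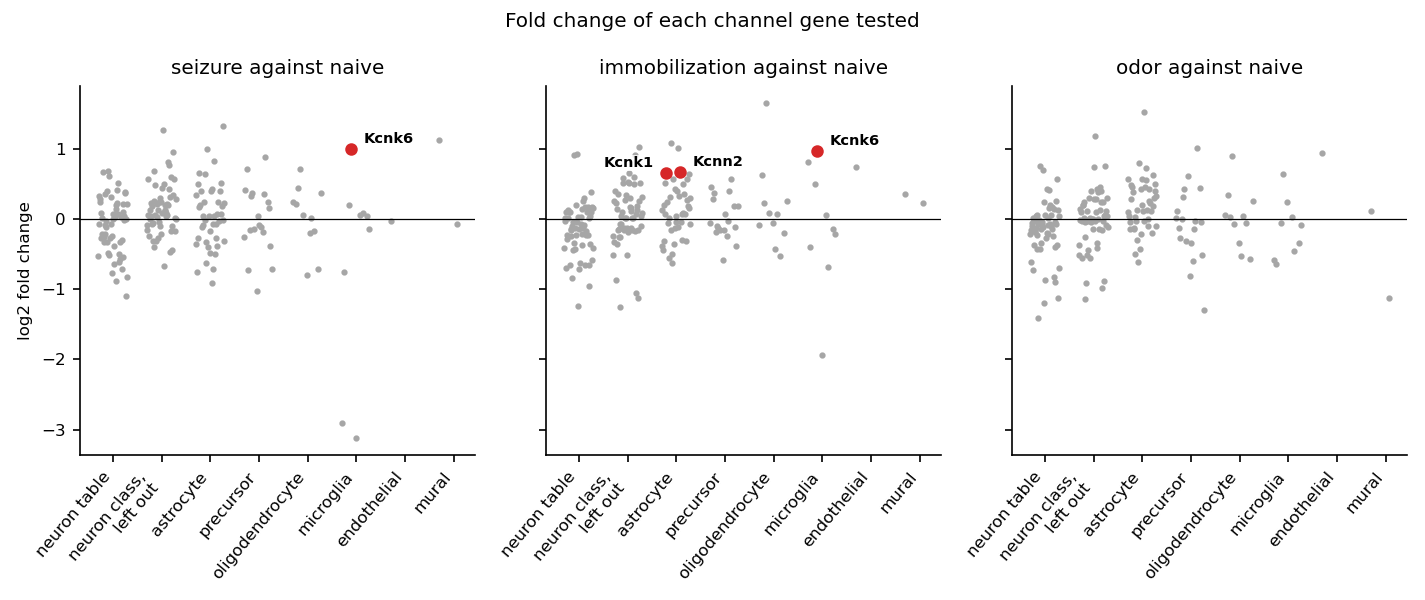
Log2 fold change of each tested pair of channel gene and class (points) for seizure, immobilization and odor against naive, by class. Red points passed the test: Kcnk6 in microglia after seizure and immobilization, and Kcnk1 and Kcnn2 in astrocytes after immobilization. The 3 panels share the naive libraries.

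Abundant channel genes of the other classes did not pass either. Cacng4 in precursors was at 1168, 1168, 1123, 1169 and 930 CPM in naive 1 to 5, and at 740, 1221, 1434 and 629 CPM in immobilization 1 to 4 (log2 -0.12, SE 0.20, adjusted p = 0.996). Kcna1 in oligodendrocytes varied within the naive group from 125 to 628 CPM and was at 543, 570, 640 and 356 CPM after immobilization (log2 0.63, SE 0.22, adjusted p = 0.301). It passed with no filter on low counts and without naive 2 (log2 0.65 to 0.98, lowest adjusted p = 0.00168). Kcnj8 in mural cells was at 733 to 1739 CPM in naive and 264 to 589 CPM in odor libraries, with no overlap (log2 -1.13, SE 0.44, n = 3 against 4; adjusted p = 0.409). The 4 mural markers in those cells summed to 16851 to 28028 CPM in naive and 13878 to 20168 CPM in odor libraries, and their part in the difference was not tested.

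Partner genes were followed for comparison: 36 of a list of 37 channel-associated genes were in the table, among them Scn2a1, the Fgf11 to Fgf14 factors that bind sodium channels, ankyrins, calmodulins and sodium-potassium pump subunits, in 164 pairs of gene and class. Only Atp1b1, the pump's beta subunit, passed, in endothelial cells after immobilization: 84.4 ± 47.8 CPM (n = 4, 44 UMIs) against 18.5 ± 9.96 CPM in naive libraries (n = 5, 9 UMIs), log2 2.29 (SE 0.57, adjusted p = 0.0226). Neuron markers in those endothelial cells summed to 219 to 609 CPM in naive and 243 to 1090 CPM in immobilization libraries, and their part was not tested. In that class 70 of 3968 genes were called after immobilization, and the Atp1b1 call was not followed under the alternatives. Scn2a1 in neurons differed from naive by log2 values of 0.05 (SE 0.21) after seizure, 0.01 (SE 0.19) after immobilization and -0.09 (SE 0.19) after odor. Abcc9, the sulfonylurea receptor that pairs with Kcnj8, was at 167 ± 128 CPM in odor and 560 ± 178 CPM in naive mural cells (log2 -1.79, SE 0.47, adjusted p = 0.199).

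Summed over all 110 genes, levels were given by group without a test. In neurons the sum was 3738 ± 221 CPM in naive (n = 5), 3487 ± 6.26 in seizure (n = 2), 3480 ± 146 in immobilization (n = 4) and 3492 ± 161 CPM in odor libraries (n = 3). In astrocytes it was 2773 ± 152, 2712 ± 225, 2868 ± 290 and 3063 ± 188 CPM in the same order. In microglia it was 898 ± 148, 931 ± 169, 953 ± 242 and 886 ± 108 CPM.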

How the data were processed

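UMI counts per gene and cell, deposited by the authors as raw counts in 2 tables (all cells and neurons) of 16 Act-Seq libraries, were used; per the submitters' processing notes, base calls came from bcl2fastq 2.17.1.14 and alignment to mm10 from STAR 2.5.0a. The counting tool, annotation, strand setting, cell filters and doublet treatment are not stated there; removing the 5% of cells with the most UMIs was one alternative. Sums of counts over the cells of a library in a class (at least 10 cells) were tested with edgeR 4.0.16 (TMM scaling, filterByExpr, quasi-likelihood F-test) in R 4.3.3. There was 1 fit per class over naive, seizure, immobilization and odor, with Benjamini-Hochberg adjustment over all genes of the class and a threshold of 0.05. The SE of a log2 fold change is its size over the root of F. Levels are UMIs per 1000000 UMIs of a library in a class (CPM), as mean ± SD over libraries. DESeq2 1.42.0 was an alternative, as were RLE scaling, no filter, age as a covariate, a replicate block and leaving out each library. On simulated counts for seizure against naive with 200 genes changed, edgeR recovered 51% (neurons, 8808 genes), 54% (astrocytes, 10520) and 33% (oligodendrocytes, 7447) of genes changed by 1 on the log2 scale, and 86%, 93% and 80% of genes changed by 2.

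The genes and the lists were chosen with earlier results of these data known. Named genes were those past the threshold, the 3 highest in naive libraries of each class (5 in neurons), a fixed list, the 10 with the largest ratio of highest to median neuron cluster, the 5 pairs of lowest p in each comparison and partner genes past the threshold; Kcnq1ot1 of the fixed list was not matched. Others (such as Cacnb3, Cacng2 in neurons, Kcnip3 outside precursors, Kcnab2, Kcne4, Scn2b and Scn3a) were chosen after their values were seen, as were Scn2a1 and Abcc9. The library of saline-injected control mice and the conventionally dissociated libraries were not used, so seizure was compared with naive mice, and 4 of the channel genes are counted in the sums but not reported singly here.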

Additional observations from a re-analysis of the deposited data

Results flagged for a closer look

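Dixon's test compared each library with the others of its group in 97 groups of 4 or 5 libraries, for the named pairs of gene and class. Chance flags about 1 in 20 groups, and 12 of 97 had a library set apart. Of these, 8 were in the small libraries naive 5 and immobilization 4. In immobilization 4, Kcnj2 in microglia was at 44.0 CPM (1 UMI) against 8.49 to 13.6 CPM in the other immobilization libraries, Kcnk13 in microglia at 0 CPM against 42.5 to 50.3 CPM, Kcnma1 in astrocytes at 0 CPM against 22.5 to 24.8 CPM, and Kcna6 in oligodendrocytes at 50.8 CPM (2 UMIs) against 86.8 to 92.3 CPM. In naive 5, Kcnj10 was at 156 CPM in oligodendrocytes (5 UMIs) against 397 to 440 CPM and at 558 CPM in precursors (21 UMIs) against 275 to 341 CPM. Also in naive 5, Cacng4 in precursors was at 930.0 CPM (35 UMIs) against 1123 to 1169 CPM, and Kcnq3 in neurons at 256 CPM (6 UMIs) against 54.7 to 91.3 CPM.

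The other 4 were in larger libraries. Cacna2d2 in neurons was at 248 CPM in naive 2 (87 UMIs) against 42.6 to 69.5 CPM. Kcnj8 in mural cells was at 1739 CPM in naive 1 (62 UMIs) against 733 to 753 CPM. Kcnj16 was at 386 CPM in astrocytes of odor 2 (271 UMIs) against 440 to 448 CPM, and at 377 CPM in the left-out neuron-class cells of naive 4 (85 UMIs) against 261 to 294 CPM.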

How the results depend on the processing

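The count of channel genes called after immobilization, 3, was 5 with no filter on low counts and 1 with age as a covariate, and ranged from 1 to 4 when 1 library was left out, with 1 without immobilization 1 or immobilization 3. After seizure the count, 1, ranged from 0 to 1, with 0 without naive 1, seizure 1 or seizure 2; the seizure library that then remains is assumed to vary like the other groups. After odor it was 3 with no filter and ranged from 0 to 2, with 2 without naive 2. Between seizure and immobilization it was 0 under every setting tried. The causes of these changes were not tested. The replicate block gave 1, 3, 0 and 0 calls for seizure, immobilization and odor against naive and for seizure against immobilization, as without it. The labels used here do not say whether libraries of the same number are paired. Deviations of same-numbered libraries correlated at a mean r of 0.02 over 18 pairs in astrocytes (1 over 0.1) and 0.00 over 16 pairs in neurons (0 over 0.1). Counting noise in genes of few UMIs keeps such an r low, so this check cannot decide on pairing. Of 521 values of 20 fold changes under the alternatives, 505 kept their direction and side of the threshold and none reversed. These 20 were the called pairs and the 5 pairs of lowest p in each comparison, chosen in these same libraries. The alternatives reuse most of the libraries, so few reversals could occur, and the count is no measure of robustness. Small classes limit depth: mural and endothelial cells allowed tests of 2 and 1 channel genes.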
